A study of Mus musculus with 10 samples.

Results

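Extracellular ATP and adenosine are sensed and processed at the T cell surface by a small set of receptors and enzymes, and 10 of their genes are described here in mouse CD8 T cells that were given cytokine mRNA. They are the ATP-gated channel genes P2rx3 (ENSMUSG00000027071), P2rx4 (ENSMUSG00000029470) and P2rx7 (ENSMUSG00000029468), the ectonucleotidase genes Entpd1 (CD39, ENSMUSG00000048120) and Nt5e (CD73, ENSMUSG00000032420), the ectoenzyme gene Cd38 (ENSMUSG00000029084), the adenosine receptor genes Adora2a (ENSMUSG00000020178) and Adora2b (ENSMUSG00000018500), the adenosine deaminase gene Ada (ENSMUSG00000017697) and Dpp4 (CD26, ENSMUSG00000035000). The count table holds 55359 gene identifiers, of which 15777 had enough counts to be tested, and all 10 of these genes were among the tested ones. P2rx3 passed the low-count filter only through the groups in which it is high. The genes were chosen by role, with their counts in all 5 groups already known from earlier work on the same data. Their fold changes and calls are therefore given as a description and support nothing by themselves.

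The cells were pmel-1 lymphocytes from mouse spleen, which carry a transgenic T cell receptor for the melanoma antigen gp100. In all groups, spleen cells were activated for 48 h with hgp100 and kept for another 48 h with hIL-2. Cells labelled WT were not electroporated (NoEp). The other 4 groups were electroporated with mRNA, and their RNA was taken 24 h later: controls (Mock), cells given mRNA for DRIL18, a decoy-resistant form of IL-18, cells given mRNA for scIL-12, a single-chain IL-12 (IL12), and cells given both mRNAs (mixture). The sources used here do not say which mRNA the Mock cells received, or the age and sex of the mice. No time of RNA is recorded here for NoEp, so it may differ from that of Mock. Each group has 2 libraries, called biological replicates, with no statement that they came from separate animals, so the tests measure only the spread between these samples, which may be technical.

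ATP that leaves activated or damaged cells opens P2X channels, of which P2X7 needs far more ATP than the others and can drive T cell death. CD39 strips ATP and ADP to AMP, and CD73 turns AMP into adenosine, which acts through the receptors encoded by Adora2a and Adora2b to raise cAMP and damp T cell effector function. Adenosine deaminase, which binds CD26 at the cell surface in humans but is not known to do so in mice, removes adenosine, and CD38 consumes NAD, whose products can feed the same AMP and adenosine route.

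Windows around the annotated gene starts were taken from RefSeq (GRCm38.p6), from 250 bases before to 50 bases after the start. Of the 10 genes, 8 had such a window, and Entpd1 and P2rx7 had 2 each, which makes 10 windows. Printed here are those of Nt5e, Entpd1 and Cd38, 3 genes that were all higher with IL12 alone than in any other group, and that of P2rx7, the gene with the highest IL12 to Mock fold among those with a window. The Nt5e window lies at chr9:88327359-88327658 on the plus strand, the first Entpd1 window at chr19:40612116-40612415 (plus), the Cd38 window at chr5:43868559-43868858 (plus) and the first P2rx7 window at chr5:122643677-122643976 (plus). Sequences read 5′ to 3′ on the gene's strand, with the start site after base 250 and motif matches in capitals.
Nt5e: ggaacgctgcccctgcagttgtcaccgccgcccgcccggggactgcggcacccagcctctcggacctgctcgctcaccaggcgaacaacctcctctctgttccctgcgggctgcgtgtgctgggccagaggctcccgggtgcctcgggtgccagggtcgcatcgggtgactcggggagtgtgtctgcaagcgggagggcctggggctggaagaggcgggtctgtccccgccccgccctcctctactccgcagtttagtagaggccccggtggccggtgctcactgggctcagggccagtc
Entpd1: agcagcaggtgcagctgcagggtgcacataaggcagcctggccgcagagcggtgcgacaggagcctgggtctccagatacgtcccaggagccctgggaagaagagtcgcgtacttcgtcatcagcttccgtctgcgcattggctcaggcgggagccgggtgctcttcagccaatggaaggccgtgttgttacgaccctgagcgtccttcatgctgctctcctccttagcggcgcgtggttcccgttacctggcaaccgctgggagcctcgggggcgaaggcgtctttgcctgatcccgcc
Cd38: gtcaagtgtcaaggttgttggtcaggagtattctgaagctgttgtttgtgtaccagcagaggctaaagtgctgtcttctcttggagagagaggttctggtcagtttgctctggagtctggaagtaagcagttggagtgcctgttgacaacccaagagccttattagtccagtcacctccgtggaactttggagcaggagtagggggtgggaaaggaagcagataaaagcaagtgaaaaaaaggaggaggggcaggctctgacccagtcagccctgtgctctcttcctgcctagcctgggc
P2rx7: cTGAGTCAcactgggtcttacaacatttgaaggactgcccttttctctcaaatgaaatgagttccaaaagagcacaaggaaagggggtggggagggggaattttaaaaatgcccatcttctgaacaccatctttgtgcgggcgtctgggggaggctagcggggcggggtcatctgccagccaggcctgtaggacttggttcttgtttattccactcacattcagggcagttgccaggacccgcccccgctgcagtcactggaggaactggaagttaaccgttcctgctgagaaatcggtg

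Both strands of the 10 windows were searched for TTCNNNGAA (STAT gamma-activated site), AGGTGTGA (T-box site), TGANTCA (AP-1 site), TGACGTCA (cAMP response element), CACGTG (E-box) and GGGANTTTC (start of a kB site). None of these motifs contains another. Only 2 windows held a match. The P2rx7 window printed above holds TGAGTCA, written in capitals, 249 bases before the start, and the Ada window (chr2:163750190-163750489, minus strand) holds TTCCGGGAA 90 bases before the start. Among 32851 windows of the same length, 7.81% hold TGANTCA and 8.30% hold TTCNNNGAA. The other motifs stand in 1.28% (AGGTGTGA), 1.79% (TGACGTCA), 7.15% (CACGTG) and 1.11% (GGGANTTTC) of them. A match is a run of letters and not a bound site, and the printed Nt5e, Entpd1 and Cd38 windows hold no match to any of the 6 motifs.

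The libraries hold 31281944 to 35062545 counts, with 20326 to 21358 genes detected in each. Levels are CPM, read counts scaled to a common library total, with totals corrected by TMM factors, which ran from 0.95467 to 1.02726. As a check of the labels, Il18 stood at 400.7 to 411.8 CPM with DRIL18 and 360.3 to 402.3 CPM in the mixture, against 1.73 to 2.32 CPM in the other 3 groups. All 10 markers of CD8 T cells were detected, with a summed level between 8705 and 9116 CPM in NoEp, 8400 and 8577 in Mock, 8030 and 8129 with DRIL18, 6634 and 6973 with IL12, and 6460 and 6628 in the mixture. In bulk RNA, fewer cells of a type and less RNA of a gene per cell cannot be told apart. Levels of markers of other cell types are given at the end.

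**Figure D1:**
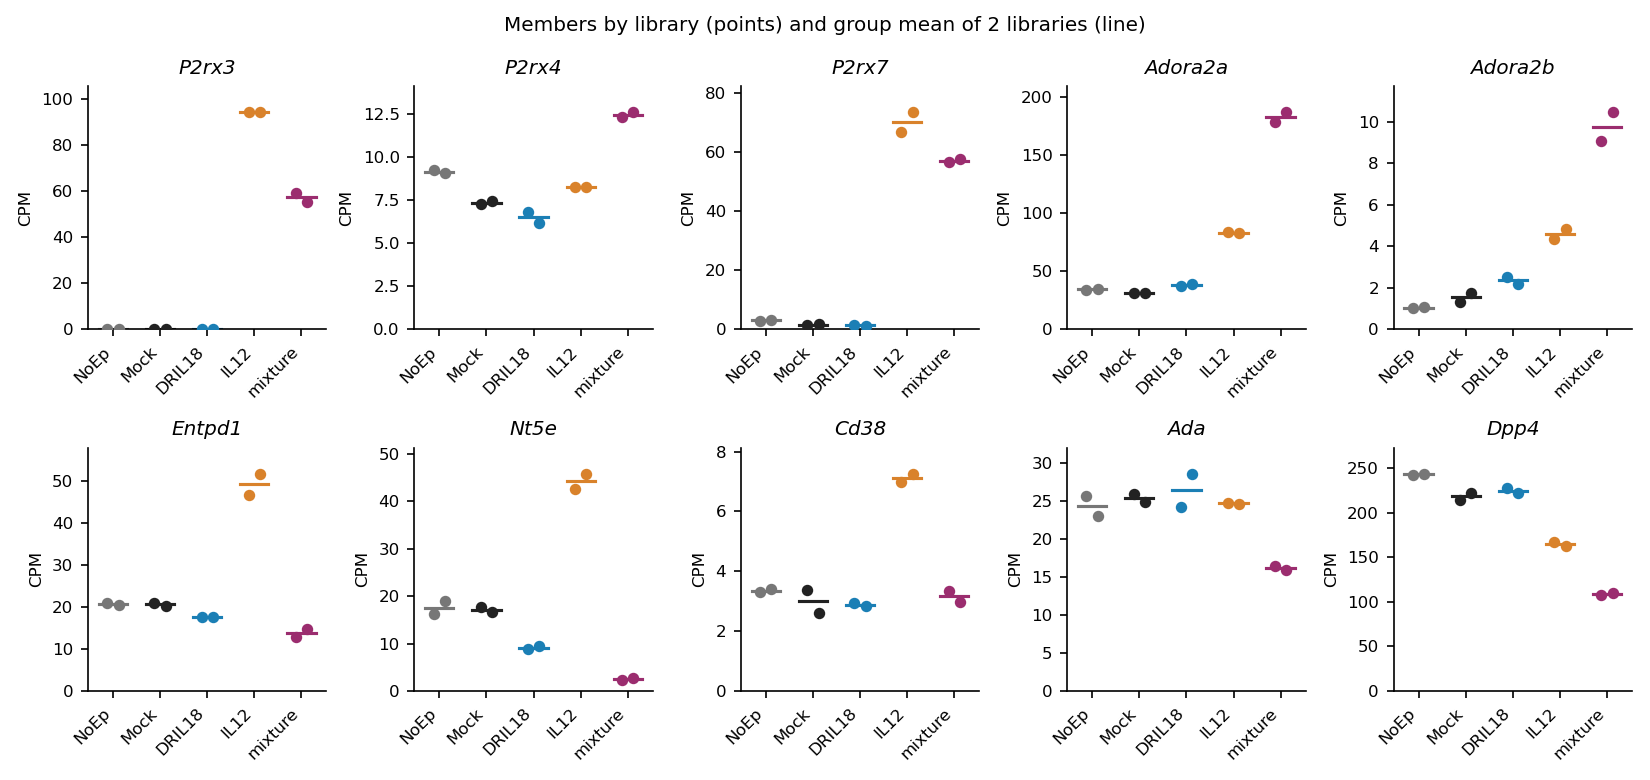
Level of each of the 10 genes in CPM (vertical axis, a scale of its own for each gene, starting at 0) in the 2 libraries of each group (points) with the group mean (line). P2rx3 and P2rx7 are high in the IL12 and mixture libraries, Adora2a and Adora2b are highest in the mixture, Entpd1, Nt5e and Cd38 are highest with IL12 alone, and Ada and Dpp4 are lowest in the mixture.

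The first question was how the ATP-gated channels differed between the groups. P2rx3 and P2rx7 were low without IL-12 mRNA and high with it, with or without DRIL18, while P2rx4 was highest in the mixture. P2X3 is best known from sensory neurons, P2X7 is the high-ATP channel of T cells and macrophages, and P2X4 responds to lower ATP.

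P2rx3 had 9 and 1 counts in the NoEp libraries, 3 and 3 in Mock, and 9 and 4 with DRIL18, against 2889 and 3005 with IL12 and 2038 and 1869 in the mixture. On the CPM scale the level was 94.3 and 94.5 with IL12 and 59.5 and 55.4 in the mixture, and at most 0.282 in any other library. The 6 libraries without IL-12 mRNA thus held 1 to 9 reads each. NoEp overlapped with Mock and with DRIL18, the Mock libraries lay just below those of DRIL18, and the 4 libraries with IL-12 mRNA lay above all of these. Per library total, the IL12 counts were 1085 times those of Mock, with a 95% counting interval from 498 to 2959, and the mixture counts 660 times (303 to 1801). These intervals cover counting error only, over 6 counts in Mock. The DRIL18 to Mock ratio was 2.18 with an interval from 0.772 to 6.99, and the gene did not pass the test there (log2 fold change 1.09 ± 0.73 SE, adjusted p = 0.314 in edgeR's quasi-likelihood test). In the mixture P2rx3 was lower than with IL12 alone, by a log2 difference of -0.72 ± 0.07, a call that limma on the authors' log2 values did not make (adjusted p = 0.254).

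The annotated exons of P2rx3 share 51 bp with Ssrp1, a gene for a histone chaperone subunit on the opposite strand, per the GENCODE M21 annotation. Ssrp1 stood at 425 ± 6.29 CPM in Mock (mean ± SD, n = 2), 1264 ± 4.64 with IL12 and 964 ± 13.4 in the mixture, a log2 fold change of 1.57 between IL12 and Mock. The kit marks strand, but the sources used here do not say whether counting used it, and if it did not, reads of the shared stretch could not be told apart. Mock held 29331 counts of Ssrp1 beside 6 of P2rx3, and IL12 held 78920 beside 5894.

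P2rx7 stood at 2.89 and 3.20 CPM in NoEp, 1.39 and 1.70 in Mock, 1.62 and 1.30 with DRIL18, 66.9 and 73.6 with IL12, and 56.6 and 57.6 in the mixture. The Mock and DRIL18 libraries overlapped, NoEp lay just above them, and the IL12 and mixture libraries lay far above all of these. Against Mock, the fitted log2 fold change was 5.51 ± 0.11 with IL12 and 5.21 ± 0.11 in the mixture. In the mixture P2rx7 was 1.23-fold lower than with IL12 alone (log2 difference -0.30 ± 0.06), which did not pass in limma on the authors' log2 values (adjusted p = 0.0616). P2rx7 also passed between Mock and NoEp, with a log2 fold change of -0.99 ± 0.17.

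P2rx4 stood at 9.23 and 9.07 CPM in NoEp, 7.27 and 7.43 in Mock, 6.84 and 6.16 with DRIL18, 8.23 and 8.24 with IL12, and 12.3 and 12.6 in the mixture. No 2 groups overlapped, but the 4 groups outside the mixture lay close together, within 6.16 to 9.23 CPM. P2rx4 did not pass between IL12 and Mock (log2 fold change 0.16 ± 0.11) or between DRIL18 and Mock (-0.18 ± 0.12), and it rose in the mixture by 0.76 ± 0.11.

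For the ectonucleotidases, which make adenosine from ATP in 2 steps, IL12 alone and joint delivery gave opposite directions. Nt5e and Entpd1 rose with IL12 alone and fell in the mixture, in both cases against Mock. With DRIL18 alone Nt5e fell as well, while the call of Entpd1 there did not hold without single libraries.

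Nt5e (CD73) stood at 16.3 and 18.9 CPM in NoEp, 17.6 and 16.6 in Mock, 8.80 and 9.43 with DRIL18, 42.5 and 45.8 with IL12, and 2.30 and 2.73 in the mixture. NoEp and Mock overlapped, and every other pair of groups was separate. The log2 fold change against Mock was 1.37 ± 0.08 with IL12, -0.91 ± 0.10 with DRIL18 and -2.77 ± 0.12 in the mixture. Between the mixture and IL12 alone Nt5e was 17.6-fold lower (-4.13 ± 0.11), the largest difference of these 10 genes in that comparison, and the mixture libraries held 79 and 92 counts against 1303 and 1458.

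Entpd1 (CD39) stood at 20.8 and 20.4 CPM in NoEp, 21.0 and 20.2 in Mock, 17.5 and 17.6 with DRIL18, 46.7 and 51.7 with IL12, and 12.8 and 14.8 in the mixture. The order of the groups was the same as for Nt5e, with NoEp and Mock overlapping and the other groups apart. Against Mock the log2 fold change was 1.26 ± 0.07 with IL12 and -0.58 ± 0.08 in the mixture, and the mixture was 3.57-fold below IL12. With DRIL18 it was lower by -0.23 ± 0.08 (edgeR adjusted p = 0.0354). That call was lost when any 1 of the 4 libraries of the comparison was left out (adjusted p 0.0887 to 0.1995 in edgeR) and in DESeq2 (adjusted p = 0.0636).

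Cd38, the NAD glycohydrolase gene, stood at 3.29 and 3.39 CPM in NoEp, 3.37 and 2.62 in Mock, 2.94 and 2.83 with DRIL18, 6.99 and 7.26 with IL12, and 3.36 and 2.96 in the mixture. Only the IL12 libraries stood apart, and the other 4 groups overlapped along their order of means. It rose with IL12 by 1.25 ± 0.17 and did not pass in the mixture (0.08 ± 0.18) or with DRIL18 (-0.05 ± 0.18). The mixture was lower than IL12 alone by a log2 difference of -1.17 ± 0.16. Each library outside IL12 held 88 to 122 counts of Cd38.

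**Figure D2:**
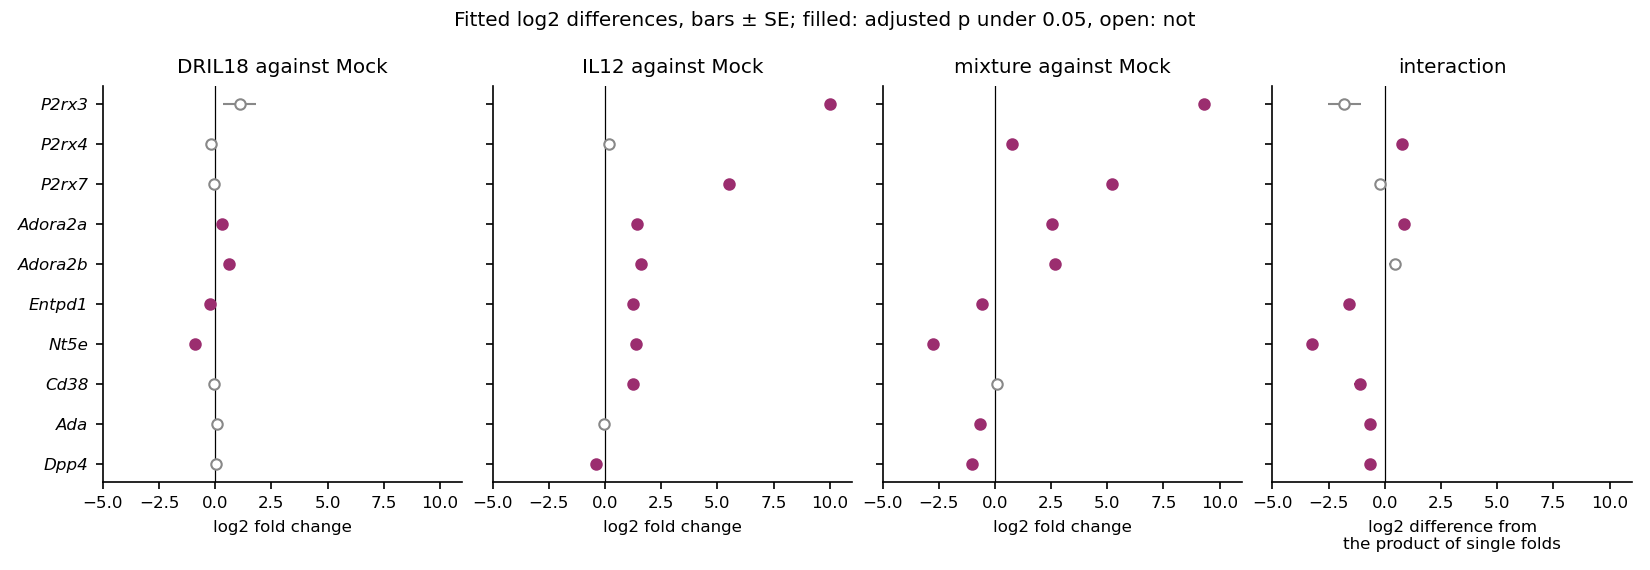
Fitted log2 fold changes of the 10 genes (rows) for DRIL18, IL12 and the mixture against Mock, and the interaction, which is the log2 difference of the mixture from the product of the single folds, with bars for ± SE and filled points at an adjusted p under 0.05. Nt5e lies at 1.37 with IL12, at -2.77 in the mixture and at -3.22 for the interaction, while P2rx3 and P2rx7 lie above 5 with IL12 and in the mixture. The P2rx3 bars with IL12 and in the mixture understate the counting error.

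The adenosine receptors rose with IL12 and rose further in the mixture. Adora2a encodes the high-affinity adenosine receptor of T cells and Adora2b a low-affinity one, and both couple to cAMP production. Adora2a stood at 34.2 and 34.7 CPM in NoEp, 31.3 and 31.1 in Mock, 37.1 and 39.4 with DRIL18, 83.3 and 82.8 with IL12, and 178 and 187 in the mixture. No 2 groups overlapped. Against Mock, the log2 fold change was 0.29 ± 0.05 under DRIL18, 1.41 ± 0.05 under IL12 and 2.55 ± 0.05 in the mixture, where the level was 2.20-fold that of IL12 alone.

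Adora2b stood at 1.04 and 1.06 CPM in NoEp, 1.33 and 1.75 in Mock, 2.54 and 2.21 with DRIL18, 4.34 and 4.84 with IL12, and 9.05 and 10.5 in the mixture. The groups were in the order NoEp, Mock, DRIL18, IL12 and mixture, without overlap. It rose with IL12 by 1.58 ± 0.20 and in the mixture by 2.66 ± 0.18 on the log2 scale. With DRIL18 it was higher by 0.63 ± 0.21 (edgeR adjusted p = 0.0288), on 163 counts against 106 in Mock. This last call did not hold in DESeq2 (adjusted p = 0.0542), in limma-voom (0.0691), with the mark bis as a term (0.0581), without Mock replicate 1 (0.43, adjusted p = 0.282) or without DRIL18 replicate 1 (0.52, adjusted p = 0.187). The mark bis stands on the column names of 6 libraries, and the sources used here do not explain it.

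Ada, which removes adenosine, and Dpp4 were lowest in the mixture. Ada stood at 25.7 and 23.0 CPM in NoEp, 25.9 and 24.9 in Mock, 24.3 and 28.6 with DRIL18, 24.8 and 24.6 with IL12, and 16.4 and 15.9 in the mixture. All libraries outside the mixture lay between 23.0 and 28.6 CPM. Ada did not pass with IL12 (log2 fold change -0.04 ± 0.08) or DRIL18 (0.06 ± 0.08) and fell in the mixture (-0.65 ± 0.08).

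Dpp4, whose product CD26 is a surface peptidase known as the adenosine deaminase anchor of human T cells, a role not established for the mouse protein, stood at 242 and 244 CPM in NoEp, 214 and 222 in Mock, 227 and 222 with DRIL18, 167 and 163 with IL12, and 108 and 110.0 in the mixture. Mock and DRIL18 overlapped, and the levels fell from there to IL12 and on to the mixture without overlap. The log2 fold change against Mock was -0.40 ± 0.04 with IL12 and -1.001 ± 0.04 in the mixture, while with DRIL18 Dpp4 did not pass (0.04 ± 0.04). Between Mock and NoEp, Dpp4 was lower by -0.16 ± 0.04 (edgeR adjusted p = 0.00785). That call was lost without NoEp replicate 2 (adjusted p = 0.0787) or Mock replicate 1 (0.192), and with the mark bis as a term (0.0685). An antisense gene, Gm13561, shares 232 bp of exon with Dpp4 and had at most 48 counts in a library.

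Counted over the comparisons, the 10 genes were called often, as were all tested genes. With IL12 against Mock, 7 were higher and 1 was lower, where 23.0% of all 15777 tested genes were higher and 23.6% lower (46.6% in either direction). In the mixture against Mock, 5 were higher and 4 lower, with 32.0% and 31.9% of all genes (63.9%). With DRIL18 against Mock, 2 were higher and 2 lower, with 12.2% and 12.1% of all genes (24.3%).

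Between Mock and NoEp, 0 of the 10 were higher and 2 lower by edgeR, with 3.34% and 3.64% of all genes (6.98%). The nearest to passing as higher was Adora2b, with an adjusted p of at least 0.108 under every alternative tried (0.197 in edgeR as reported, unadjusted p = 0.0317). Since the 10 genes were chosen with these contrasts known, nothing is read from the counts against those shares.

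The mixture was also set against each single mRNA. Against DRIL18, which shows what IL-12 mRNA adds in cells with DRIL18, 5 of the 10 were higher and 4 lower, beside 28.3% and 29.0% of all genes (57.3%), and Cd38 alone did not pass (0.13 ± 0.18). P2rx3 differed by 8.22 ± 0.17, which rests on 13 counts with DRIL18, and this SE understates the error. The count ratio was 303 with a 95% counting interval from 177 to 570. The log2 difference ran from 7.77 to 8.88 without single libraries of DRIL18. P2rx7 differed by 5.29 ± 0.11, Adora2a by 2.25 ± 0.05, Adora2b by 2.04 ± 0.17 and P2rx4 by 0.94 ± 0.11 on the log2 scale. Nt5e was lower by -1.86 ± 0.13, Dpp4 by -1.04 ± 0.04, Ada by -0.71 ± 0.08 and Entpd1 by -0.35 ± 0.08.

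Against IL12, which shows what DRIL18 mRNA adds in cells with IL-12, all 10 passed in edgeR, 3 higher and 7 lower, beside 25.8% and 26.3% of all genes (52.2%). The 3 higher ones were Adora2a (1.13 ± 0.05), Adora2b (1.09 ± 0.16) and P2rx4 (0.60 ± 0.11). The lower ones were Nt5e, Entpd1, Cd38, P2rx3 and P2rx7, given above, with Ada (-0.61 ± 0.08) and Dpp4 (-0.60 ± 0.04).

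The interaction asks whether the mixture differs from the product of the DRIL18 and IL12 folds. On the log2 scale, the changes of DRIL18 and IL12 against Mock are added and then taken from that of the mixture. Of the 10 genes, 2 were above that product and 5 below it, beside 14.6% and 17.1% of all tested genes (31.6%). For Nt5e, multiplying the single folds gives 23.5 CPM, against a measured 2.52 ± 0.298 CPM (mean ± SD, n = 2), which is 9.35 times lower (interaction -3.22 ± 0.15). Entpd1 would be at 42.0 CPM and was at 13.8 ± 1.40 (-1.61 ± 0.11), and Cd38 would be at 6.87 and was at 3.16 ± 0.277 (-1.12 ± 0.25). These 3 genes thus stood below the product by the widest margins of the genes that passed.

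Dpp4 (170 by the product and 109 ± 1.57 CPM measured, interaction -0.64 ± 0.05) and Ada (25.7 and 16.1 ± 0.363, -0.67 ± 0.11) were also below. Adora2a was above it, with 102 CPM by the product and 182 ± 6.12 measured (0.84 ± 0.07), as was P2rx4, with 7.28 and 12.5 ± 0.199 (0.77 ± 0.16). Adora2b (7.07 and 9.75 ± 1.00 CPM, interaction 0.46 ± 0.27) and P2rx7 (66.4 and 57.1 ± 0.773, -0.22 ± 0.21) did not pass. P2rx3, at 57.4 ± 2.88 CPM against 205 by the product, did not pass in edgeR (-1.81 ± 0.73, adjusted p = 0.0586), and its product rests on 6 counts in Mock and 13 with DRIL18. It did pass in DESeq2 (adjusted p = 0.0376), in the fit without the NoEp group (0.0323) and without DRIL18 replicate 2 (0.0388), and without either 1 of the NoEp libraries (0.0341 and 0.0337). It did not pass in the other 15 alternatives, among them limma-voom (-1.63, adjusted p = 0.1455) and the fit without DRIL18 replicate 1 (-1.14, adjusted p = 0.479), while without DRIL18 replicate 2 it was at -2.25.

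**Figure D3:**
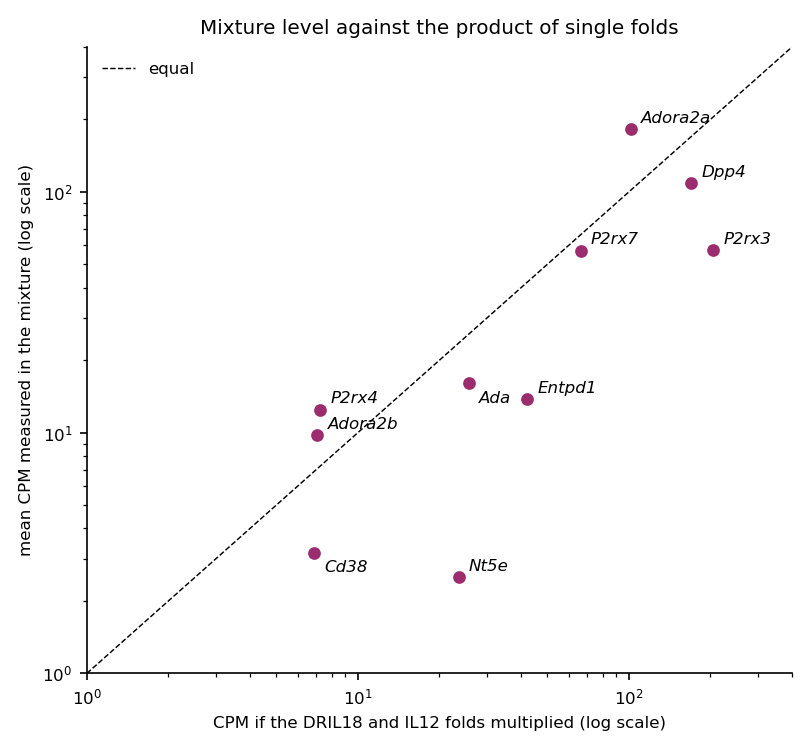
Mean CPM measured in the mixture (vertical axis, log scale) against the CPM that the DRIL18 and IL12 folds would give if multiplied (horizontal axis, log scale), 1 point per gene, with a dashed line where both are equal. Nt5e lies farthest below the line, at 2.52 against 23.5 CPM, and Adora2a and P2rx4 lie above it.

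To compare genes with each other, CPM were divided by the exon length of each gene in kilobases. In Mock, Dpp4 was highest at 34.5 CPM per kb, followed by Ada at 12.7 and Adora2a at 10.2, then Entpd1 at 3.69 and Nt5e at 1.99. P2rx4 (1.05), Adora2b (0.836), Cd38 (0.769) and P2rx7 (0.258) were lower, and P2rx3 was lowest at 0.0312 CPM per kb. With IL12, P2rx3 came first at 33.9 CPM per kb, before Adora2a at 27.1 and Dpp4 at 26.1, and P2rx7 reached 11.8. In the mixture Adora2a led at 59.6 CPM per kb, ahead of P2rx3 at 20.6 and Dpp4 at 17.2, and Nt5e was lowest at 0.292. These lengths count every annotated exon and so understate genes that use few of them.

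Beyond the 10 genes, a list of 48 others covers purine receptors, ectoenzymes, release and transport, and the purine enzymes inside the cell. Of these, 47 matched an identifier and 36 were tested. With IL12 against Mock 11 were higher and 10 lower, in the mixture 13 and 17, with DRIL18 8 and 6, and between Mock and NoEp 2 and 4. Of all tested genes, 46.6%, 63.9%, 24.3% and 6.98% were called in either direction, in that order. The median absolute log2 fold change of the 36 genes was 0.371 with IL12 and 0.895 in the mixture, beside 0.276 and 0.470 over all tested genes. The mixture against DRIL18 gave 12 higher and 14 lower, the mixture against IL12 9 and 12, and the interaction 6 and 8. The shares of all tested genes called there were 57.3%, 52.2% and 31.6%.

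Among the 5 tested ectoenzymes, Art2b and Bst1 act beside P2X7 and CD38. Art2b encodes an ecto-ADP-ribosyltransferase that modifies P2X7 on mouse T cells in the presence of NAD, and Bst1 is a close relative of CD38. Art2b stood at 37.8 ± 0.287 CPM in Mock (n = 2), 117 ± 2.48 with IL12 and 11.2 ± 0.148 in the mixture. Its log2 fold change against Mock was 1.63 ± 0.05 with IL12 (adjusted p = 1.25e-21) and -1.76 ± 0.07 in the mixture, and its interaction was -3.61 ± 0.09 (adjusted p = 1.83e-24). Like Nt5e and Entpd1, Art2b was thus above Mock with IL12 alone and below Mock in the mixture. A related sequence, annotated as Art2a-ps, had 162 counts with IL12 and 8 to 34 in the other groups. Whether reads of the pair were split between them was not tested.

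Bst1 rose with every mRNA, from 0.798 ± 0.0486 CPM in Mock to 2.52 ± 0.141 with DRIL18, 6.18 ± 0.525 in the mixture and 8.51 ± 0.950 with IL12. Its log2 fold changes were 1.66 ± 0.25 (adjusted p = 4.88e-06), 2.95 ± 0.22 (3.04e-13) and 3.41 ± 0.21 (1.61e-14) in that order, and its interaction was -2.12 ± 0.29. Enpp1, which cleaves ATP to AMP, rose with DRIL18 by 0.41 ± 0.11 (edgeR adjusted p = 0.00562). It also rose with IL12 by 0.30 ± 0.11 (0.0313) and in the mixture by 0.77 ± 0.11. Entpd2 fell in the mixture (log2 fold change -2.63 ± 1.11, adjusted p = 0.0394) on 12 and 2 counts in Mock against 0 and 2, so that Mock replicate 1 alone stood apart.

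The list holds 6 tested genes with P2Y names, most of them for G protein-coupled nucleotide receptors. Of these, 3 rose and 2 fell with IL12 against Mock, and 3 rose and 2 fell in the mixture. Of all tested genes, 23.0% were higher and 23.6% lower with IL12, and 32.0% and 31.9% in the mixture. The 2 that fell were P2ry1 and P2ry10 in both comparisons. P2ry10, not established as a nucleotide receptor, stood at 121 ± 2.49 CPM in Mock, 97.0 ± 5.58 with IL12 and 54.5 ± 0.878 in the mixture. P2ry14, the receptor for UDP-sugars, rose from 8.71 ± 0.0827 CPM in Mock to 26.3 ± 1.97 with IL12 (log2 fold change 1.59 ± 0.09, adjusted p = 4.75e-15) and 37.4 ± 0.0264 in the mixture. P2ry12, an ADP receptor, rose by 2.37 ± 0.35 (adjusted p = 1.20e-06) and 2.13 ± 0.35, from 0.512 ± 0.285 CPM in Mock. P2ry2, a receptor for ATP and UTP, rose in the mixture by 2.95 ± 0.57 (edgeR adjusted p = 3.85e-05), to 1.37 ± 0.172 CPM. P2ry2 passed the low-count filter only through the mixture, so that call supports nothing by itself.

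P2ry1, another ADP receptor, fell with IL12 (log2 fold change -2.54 ± 0.50, adjusted p = 9.40e-05), from 1.13 ± 0.204 to 0.191 ± 0.131 CPM. P2ry13 was lower in the mixture than with IL12 by -1.53 ± 0.48 (adjusted p = 0.00757). The 2 tested P2X genes of the list did not pass in any of the 7 comparisons (edgeR adjusted p 0.284 to 0.982). Adora3, the A3 adenosine receptor, fell with DRIL18 (log2 fold change -1.46, adjusted p = 0.0112), with IL12 (-1.38, adjusted p = 0.00904) and in the mixture (-0.998, adjusted p = 0.0334), from 1.09 ± 0.223 CPM in Mock, and its interaction was 1.84 ± 0.64 (adjusted p = 0.0265).

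Of the 7 tested genes of release and transport, 6 fell and 1 rose in the mixture against Mock, where 31.9% of all tested genes were lower and 32.0% higher. Slc28a2, a concentrative nucleoside carrier, fell from 194 ± 3.95 CPM in Mock to 152 ± 6.90 under DRIL18, 117 ± 3.41 under IL12 and 43.2 ± 2.02 in the mixture (log2 fold change -2.17 ± 0.05, adjusted p = 1.33e-26). Slc17a9, which loads ATP into vesicles, fell by log2 fold changes of -0.49 under DRIL18, -0.87 under IL12 and -0.82 in the mixture, from 65.7 ± 0.105 CPM in Mock. Slc29a2, an equilibrative nucleoside transporter, rose in the mixture from 3.52 ± 0.0194 to 6.10 ± 0.619 CPM, with an interaction of 1.17 ± 0.26 (adjusted p = 0.000834), while Slc29a4 fell there (log2 fold change -2.03 ± 0.37). The ATP release channel gene Panx1 was at 66.6 ± 2.80 CPM in Mock, 53.2 ± 3.37 with IL12 and 50.4 ± 0.0957 in the mixture.

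Inside the cell, 15 purine enzyme genes were tested, and 6 rose and 6 fell in the mixture against Mock, beside the same shares of all genes. Xdh, the xanthine oxidoreductase gene, was lowest in the mixture, at 26.7 ± 0.252 CPM against 81.3 ± 0.0337 in Mock, 95.03 ± 4.13 under DRIL18 and 87.2 ± 3.13 under IL12, with an interaction of -1.93 ± 0.08 (adjusted p = 3.91e-19). Aprt, which salvages adenine, stood at 149 ± 0.953 CPM in the mixture against 67.2 ± 0.278, 81.0 ± 3.18 and 83.6 ± 4.27 in those other groups, with an interaction of 0.57 ± 0.07 (adjusted p = 2.88e-08). Adk, which turns adenosine into AMP, rose with DRIL18 by 0.48 ± 0.07 (adjusted p = 4.67e-06), to 36.8 ± 0.801 from 26.4 ± 2.45 CPM in Mock. It also rose with IL12 by 0.24 ± 0.07 and in the mixture by 0.70 ± 0.07, there to 43.0 ± 1.43 CPM.

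Ampd3, an AMP deaminase gene, fell with DRIL18 (log2 fold change -1.34, adjusted p = 0.0112), with IL12 (-1.21, adjusted p = 0.0123) and in the mixture (-1.72, adjusted p = 0.000539). Its level was low, at 1.27 ± 0.352 CPM in Mock. Ampd2, an AMP deaminase gene of far higher level, rose in the mixture by 0.37 ± 0.04 (edgeR adjusted p = 1.16e-08), from 81.5 ± 2.67 to 105 ± 0.0730 CPM. Ampd1 passed as lower in the mixture (-2.08 ± 0.61) on 43 and 14 counts in Mock against 1 and 12, so that its size rests on single libraries. Gda, the guanine deaminase gene, stood higher there at 39 counts against 1 over both Mock libraries. Gda passed the low-count filter only through the mixture, so its call there (edgeR adjusted p = 8.72e-05) supports nothing by itself. Ahcy, which breaks down S-adenosylhomocysteine to adenosine, rose with IL12 by 1.30 ± 0.04, from 137 ± 1.59 CPM in Mock to 337 ± 5.34. It rose in the mixture by 0.93 ± 0.04 and with DRIL18 by 0.21 ± 0.04, and its interaction was -0.58 ± 0.05. Between Mock and NoEp, Ahcy was higher by 0.21 ± 0.04 (adjusted p = 0.00116) and Slc29a1 by 0.18 ± 0.05 (0.0224). Art2b (-0.40 ± 0.06), Xdh (-0.25 ± 0.05), Slc28a2 (-0.23 ± 0.04) and Slc17a9 (-0.22 ± 0.05) were lower there.

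**Figure D4:**
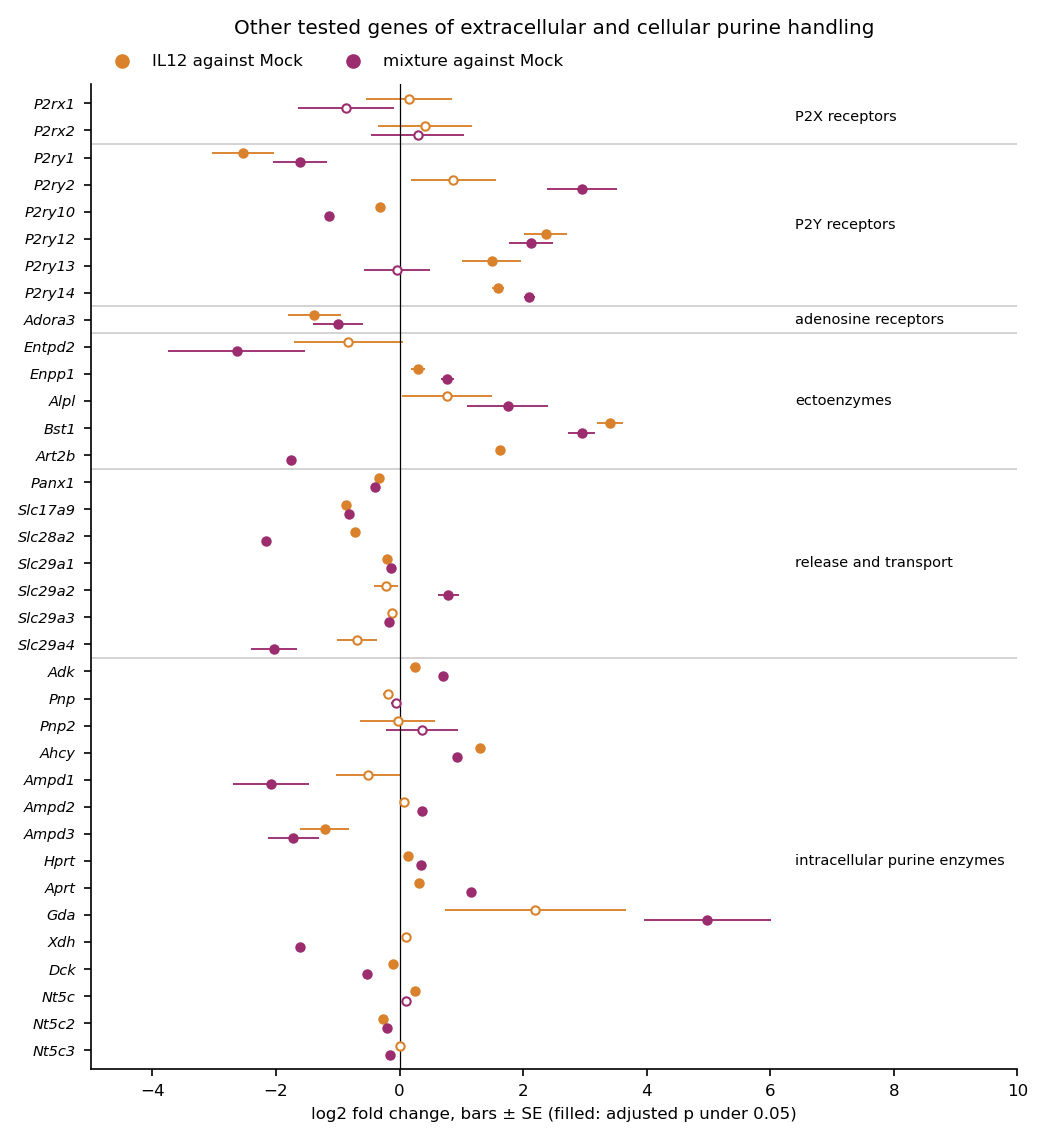
Fitted log2 fold changes with ± SE of the 36 other tested genes of the purine list (rows, by part of the list), with IL12 (orange) and the mixture (purple) against Mock. Filled points have an adjusted p under 0.05. Art2b lies at 1.63 with IL12 and at -1.76 in the mixture, and 6 of 7 genes of release and transport lie below 0 with filled points in the mixture.

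For each gene, the 2 tested genes of most similar pattern were found by Pearson's r of log2 CPM over the 10 libraries, among 10175 genes that reached 5 CPM in some group. This r is a description, since groups of 2 libraries set most of it. Nt5e was most like Timp2 (r = 0.994) and Aqp3 (0.994). Aqp3, for an aquaglyceroporin, stood at 4.87 CPM in Mock, 10.3 with IL12, 2.68 with DRIL18 and 0.691 in the mixture. Entpd1 was most like Tbc1d9b (0.988) and Elovl6 (0.986), and Cd38 most like Ctla2a (0.983) and Sesn3 (0.979).

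P2rx3 was most like Klhdc2 (0.997) and Yipf4 (0.993), and P2rx7 most like Gprin3 (0.998) and Emb (0.995). Gprin3 differed far less between groups than P2rx7, with 154 CPM in Mock and 241 with IL12. Adora2a was most like Nabp1 (0.998), at 125 CPM in Mock and 705 in the mixture, and Dnajb6 (0.995). Adora2b was most like Dars (0.994) and Scd1 (0.994), P2rx4 most like Lin7c (0.973) and Aff4 (0.972), Ada most like Phc2 (0.974) and Eef1a1 (0.970), and Dpp4 most like Rnf123 (0.996) and Calcoco1 (0.996).

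Several of these 10 genes are also used by other spleen cells, such as B cells (Cd38, Entpd1) and myeloid cells (P2rx7, P2rx4). The 7 B cell markers summed to between 684 and 695 CPM in NoEp and Mock, 906 to 955 with DRIL18, 442 to 475 with IL12 and 556 to 571 in the mixture, most of it Ighm. The 7 myeloid markers summed to at most 2.06 CPM in a library, with S100a8 and S100a9 at 0 in all 10. The 2 NK cell markers were at most 0.237 CPM in sum, the 4 markers of CD4 and regulatory T cells 30.1 to 51.3, and the 4 of red cells and platelets at most 1.20. The CD4 and regulatory list ran from 45.3 to 51.3 in NoEp, 40.5 to 44.1 in Mock, 38.8 to 41.5 with DRIL18, 34.1 to 34.2 with IL12 and 30.1 to 34.9 in the mixture, and the myeloid list from at least 2.01 in NoEp to at most 0.409 in the mixture.

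Markers of gamma-delta T cells (Trdc and Tcrg-C1) summed to 101 to 103 CPM in NoEp, 85.2 to 86.6 in Mock, 61.1 to 65.3 with DRIL18, 39.6 to 44.7 with IL12 and 22.8 to 23.3 in the mixture. The 5 dendritic cell markers summed to 21.0 to 21.7 CPM with IL12 and at most 10.4 elsewhere, with Xcr1 at 20.6 CPM of it with IL12 and at 7.82 to 8.15 in the mixture, Zbtb46 at up to 2.54 in a library and Siglech at 0 in all 10 libraries. The CD8, CD4 and regulatory, B cell, gamma-delta T cell, dendritic cell and myeloid lists thus moved with the groups, and their part in the levels of the 10 genes was not tested.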

How the data were processed

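RNA sequencing of 10 bulk libraries was used. The submitters' processing notes name STAR 2.7.9, featureCounts, edgeR, limma and the build mm39. The deposited counts are unscaled whole numbers per gene, and the authors' second table holds log2 CPM. The sources used here do not give the strand setting or annotation release. NE in column names was read as not electroporated.

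Counts were fitted with edgeR 4.0.16 in R 4.3.3: all 10 libraries, 5 group means, TMM, filterByExpr (15777 genes), quasi-likelihood F tests (residual degrees of freedom: 5), and Benjamini-Hochberg adjustment over all tested genes at 0.05. The common coefficient of variation between replicates was 3.39%. SE is the absolute log2 fold change over the square root of F. It can understate the error of large folds over few counts, as for P2rx3 and, less so, P2rx7. Replicates differed beyond counting noise (chi-square per degree of freedom 2.65 to 5.13). Symbols (52083 of 55359 identifiers matched) and exon lengths came from GENCODE M21 on GRCm38, so gene coordinates are not given.

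The 10 genes and all lists were chosen with earlier results of these data known. Named were the 10 genes, up to 4 higher and 4 lower pathway genes per comparison with the largest log2 fold changes that passed, and the 2 genes of most similar pattern. Panx1, P2ry10, Ampd2, Ssrp1, Gm13561, Art2a-ps and Il18 were named outside this rule, after their values were seen. For that similarity, a prior count of 2 was added before taking log2. Alternatives were DESeq2 1.42.0, limma-voom and limma 3.58.1 on the authors' log2 values, RLE factors or library totals alone, no filter or 1 CPM in 2 libraries, only the groups compared, each library left out, the replicate block, and the mark bis as a term. The script was tested on simulated data.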

Additional observations from a re-analysis of the deposited data

Results flagged for a closer look

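For 7 of the 10 genes, and for 31.6% of all tested genes, the IL12 effect differed with and without DRIL18 by the interaction term of edgeR's quasi-likelihood test, which is a test of that difference itself. The genes were chosen with these contrasts known, so the values are descriptions. Nt5e (CD73) had an interaction of -3.22 on the log2 scale (adjusted p = 6.05e-17): IL-12 mRNA went with a level 2.58 times that of Mock in cells without DRIL18 and with a level 3.62 times lower in cells with it. Entpd1 (CD39) had -1.61 (adjusted p = 4.19e-13), and Cd38 had -1.12 (adjusted p = 0.000609). Ada had -0.67 (adjusted p = 2.43e-05) and Dpp4 -0.64 (adjusted p = 3.69e-11). IL-12 mRNA went with a larger fall of Dpp4 in cells with DRIL18, while Ada passed as lower with it only in those cells. Adora2a, with 0.84 (adjusted p = 4.04e-11), and P2rx4, with 0.77 (adjusted p = 0.000267), differed in the other direction. IL-12 mRNA went with a larger rise of Adora2a in cells with DRIL18, while P2rx4 passed as higher with it only in those cells.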

How the results depend on the processing

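Over 1396 refits of 70 log2 fold changes (10 genes, 7 comparisons), 1347 kept direction and side of the threshold, 15 lost and 5 gained the call, and 29 changed sign, within 15 of the 70. All 200 refits of IL12 against Mock and all 200 of the mixture against DRIL18 held.

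With DESeq2, 2 of the 10 genes passed between DRIL18 and Mock instead of 4, and 3190 genes in all instead of 3832. With the mark bis as a term, 1 of the 10 passed between Mock and NoEp, with 3 other pathway genes and 172 genes in all. Leaving out single libraries gave 1 to 2 of the 10 and 242 to 1399 genes in all between Mock and NoEp (lowest without Mock replicate 1), and 2 to 4 of the 10, 9 to 16 other pathway genes and 2525 to 4125 genes in all between DRIL18 and Mock. The lowest of these came without Mock replicate 1 or DRIL18 replicate 1 for the 10 genes, and without Mock replicate 2 for the other counts.

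Sign changes were all in differences that did not pass. Entpd1 between Mock and NoEp (-0.001) was at 0.0032 with DESeq2, 0.006 with the authors' log2 values, 0.0035 with RLE factors, 0.007 without a filter, 0.0022 with the 1 CPM filter, 0.0021 with only the groups compared and 0.0923 with the mark bis, and ran from -0.0262 to 0.0291 without single libraries. With the mark bis Nt5e was at 0.0639 there, and Ada at -0.0036 between DRIL18 and Mock. Without single libraries, Mock against NoEp ran from -1.66 to 1.53 for P2rx3, -0.0187 to 0.1495 for Ada, -0.351 to 0.0114 for Cd38 and -0.137 to 0.0753 for Nt5e. DRIL18 against Mock ran from -0.0692 to 0.171 for Ada, -0.220 to 0.138 for Cd38 and -0.247 to 0.0745 for P2rx7, and the mixture against Mock from -0.0859 to 0.271 for Cd38. The cause was not tested.

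Same-numbered libraries did not deviate together (correlations -0.0318 to 0.0493 over 10 pairs of groups). This cannot tell whether a number marks a shared animal or day, since a small shared effect could be lost in the noise of single libraries. With a replicate block 2, 4, 8, 9, 9, 10 and 7 of the 10 genes passed in the 7 comparisons, as without it, and Entpd1 between Mock and NoEp was at 0.0006. Library totals alone multiplied CPM by 0.959 to 1.02 and moved the median log2 fold change of all genes by no more than 0.1. Limits are 2 libraries per group, no stated animals, few counts for P2rx3 outside IL12 and the mixture, and one time point of RNA without protein.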
